A study of Mus musculus with 3 samples.

Results

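Hedgehog pathway genes were followed through 3 stages of mouse pancreas development in a profile of the histone mark H3K36me3, which marks the bodies of genes that are being transcribed. The group holds 7 genes, the ligands Shh and Ihh, the receptor Ptch1, the signal transducer Smo and the transcription factors Gli1, Gli2 and Gli3, which were picked by Ensembl identifier out of 24318 rows with an identifier (25493 rows in all). All 7 were present once in each file. The mark was measured by CUT&Tag, in which an antibody guides a transposase that cuts and tags the nearby DNA, with an H3K36me3 antibody. The samples were pancreatic epithelial cells of wild-type (WT) C57BL/6 embryos, taken on embryonic day E11.5, on E13.5 or on E15.5 and sorted by flow cytometry on the epithelial surface protein EpCAM. Each stage has 1 library, so every value below is that of a single library, no difference could be tested and no spread between embryos is known. The sources used here do not say how many embryos went into a library. The epithelial identity of the cells was not checked against marker genes, because no table used here paired the other identifiers with gene names.

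In hedgehog signalling a secreted ligand binds the receptor Ptch1, which otherwise holds back the membrane protein Smo. Freed Smo signals to the Gli factors, of which Gli2 is the main activator, Gli3 acts largely as a repressor when the ligand is absent, and Gli1 is itself switched on by the pathway, as is Ptch1. In the embryonic foregut, Shh is made by the gut epithelium on either side of the pancreas but is kept out of the early pancreatic buds, and forced Shh expression there disturbs pancreas formation. H3K36me3 is laid down behind elongating RNA polymerase and is usually strongest in the part of a gene away from its start. It reports on transcription only indirectly, and a lower value in a sorted population can come from fewer cells that carry the mark or from less of it per cell, which cannot be told apart here.

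The deposited files give 3 columns per gene, headed GB, PR and SE, with no explanation of the letters. Their extent was worked out from the values. Each value times the length of its window is a whole number of steps of one size per library, 0.16188 (E11.5), 0.16743 (E13.5) and 0.16292 (E15.5), which gives a window length for most GB values. A step is a unit of summed signal and not a read. If the values are mean coverage, a read adds a step for each position it covers, so reads are far fewer than steps. For 5 of the 7 genes the recovered GB length equalled the length of the gene of that name in RefSeq (build GRCm38.p6) to the base. These were Shh with 10262 bases, Ihh with 6358, Ptch1 with 65133, Smo with 25870 and Gli1 with 11698. For Gli3 the recovered length was 266303 bases, against 266304 in RefSeq. For Gli2 it was 219559, against 220345, and 219559 is the distance from the RefSeq end of Gli2 to a start site that lies 786 bases inside the annotated gene. The lengths thus match the names of the 7 genes, and GB is read below as the mean signal over the whole gene from start to end.

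PR covers 6000 positions and SE 12000, and both are read below as windows around the gene's start. In the 1648 identified genes with recovered bodies under 3000 positions, the summed GB signal did not exceed the summed PR signal in 98.7% (E11.5), 98.97% (E13.5) and 99.2% (E15.5). In 2256 bodies of 3000 to 6000 positions it did not exceed the SE sum in 99.1%, 99.3% and 99.3%. Windows that reach 3000 and 6000 positions into the gene would give such values. Sums were compared with a tolerance of 0.02. Which end of the gene they surround was read from 34 pairs of neighbouring genes whose starts lie within 1000 bases of each other, where PR of the partners had a Spearman correlation of 0.716, 0.774 and 0.681 in stage order. In 20 pairs whose far ends lie within 1000 bases it was -0.10, 0.17 and 0.32, and in 2517 pairs more than 50000 bases apart 0.053, 0.034 and 0.12. Genes in these pairs were placed by their length alone, and no source states the definition of the windows.

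On GRCm38.p6, RefSeq places Shh (ENSMUSG00000002633) at chr5:28456840-28467101 and Ihh (ENSMUSG00000006538) at chr1:74945315-74951672. Ptch1 (ENSMUSG00000021466) lies at chr13:63508328-63573460 and Smo (ENSMUSG00000001761) at chr6:29735497-29761366. Gli1 (ENSMUSG00000025407) lies at chr10:127329882-127341579, Gli2 (ENSMUSG00000048402) at chr1:118834061-119054405 and Gli3 (ENSMUSG00000021318) at chr13:15463723-15730026. Promoter sequences of 300 bases, from 250 before to 50 after a start site, were held in the RefSeq-derived table for Ihh, Ptch1, Smo, Gli2 and Gli3. Those of Ihh, Smo and Gli2 are shown because their start site is the end of the recovered GB window, so that they lie in the middle of the PR window as read above. That of Ptch1 is shown because it does not. Its start site lies 7725 bases inside the GB window, beyond the reach of both PR and SE, so PR and SE of Ptch1 describe the region around the upstream end of the gene and not this promoter. The sequences run 5′ to 3′ on the strand of the gene, and capitals mark CG dinucleotides, the sites of DNA methylation in mammals.
Ihh, chr1:74951623-74951922, minus strand: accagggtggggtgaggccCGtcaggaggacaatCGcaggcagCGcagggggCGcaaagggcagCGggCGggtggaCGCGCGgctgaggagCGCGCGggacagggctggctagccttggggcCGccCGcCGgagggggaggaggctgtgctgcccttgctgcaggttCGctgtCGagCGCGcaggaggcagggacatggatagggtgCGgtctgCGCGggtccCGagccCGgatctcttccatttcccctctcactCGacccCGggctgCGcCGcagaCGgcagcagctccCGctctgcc
Ptch1, chr13:63565686-63565985, minus strand: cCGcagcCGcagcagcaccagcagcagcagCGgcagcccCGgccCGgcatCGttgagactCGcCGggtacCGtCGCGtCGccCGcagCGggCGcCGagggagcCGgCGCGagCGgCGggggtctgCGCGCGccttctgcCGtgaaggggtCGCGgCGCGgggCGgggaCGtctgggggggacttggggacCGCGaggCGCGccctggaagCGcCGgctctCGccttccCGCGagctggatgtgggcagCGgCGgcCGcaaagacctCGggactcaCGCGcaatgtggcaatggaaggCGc
Smo, chr6:29735247-29735546, plus strand: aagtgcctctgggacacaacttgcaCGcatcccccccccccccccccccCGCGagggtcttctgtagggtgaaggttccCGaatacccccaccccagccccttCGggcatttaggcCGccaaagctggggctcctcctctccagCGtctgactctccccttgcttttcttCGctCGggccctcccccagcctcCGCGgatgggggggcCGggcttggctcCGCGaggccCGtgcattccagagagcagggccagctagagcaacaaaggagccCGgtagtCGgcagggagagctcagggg
Gli2, chr1:119053570-119053869, minus strand: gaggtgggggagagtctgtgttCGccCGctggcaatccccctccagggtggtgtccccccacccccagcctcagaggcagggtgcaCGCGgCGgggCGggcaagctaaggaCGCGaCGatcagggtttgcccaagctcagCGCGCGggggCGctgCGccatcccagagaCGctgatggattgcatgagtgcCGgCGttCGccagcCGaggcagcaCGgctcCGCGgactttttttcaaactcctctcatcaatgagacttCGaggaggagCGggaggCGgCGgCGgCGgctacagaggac

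All 5 promoters held more CG dinucleotides than the median of 7 over the 32851 promoter windows of the table. The counts were 47 in Ptch1, 39 in Gli3, 30 in Ihh, 28 in Gli2 and 17 in Smo. The share of windows with fewer was 98.6% for Ptch1 and 68.6% for Smo, the ends of the range. The GLI binding motif GACCACCCA, searched on both strands, was absent from all 5 windows and was found in 0.253% of all windows. The GC box GGGCGG, also searched on both strands, occurred 2 times in Ihh and Gli3, 1 time in Ptch1 and Gli2 and 0 times in Smo, and in 35.7% of all windows at least 1 time. These counts describe the letters in these windows only.

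Over all identified genes the median GB was 0.00432 (E11.5), 0.00421 (E13.5) and 0.00371 (E15.5), in deposited units of mean coverage per position. The median of PR was 0.00394, 0.00368 and 0.00559, and that of SE 0.00448, 0.00416 and 0.00592, so the windows around the start were higher at E15.5 in the files as a whole. GB was listed at 0 in 12.9%, 14.8% and 20.3% of genes in the same order, and PR in 7.59%, 11.9% and 22.1%. Of the length classes compared, the libraries ranked bodies of 6000 to 12000 positions least alike. The Spearman correlation of GB between E13.5 and E11.5 was 0.285 across 3306 bodies of 6000 to 12000 positions, the size of Shh, Ihh and Gli1, and 0.638 across 3875 bodies of 50000 to 200000 positions. It was lower again, at 0.457, across 1327 bodies of 200000 to 600000 positions, the size of Gli2 and Gli3. The genes in such a correlation share their library and are not independent replicates.

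**Figure D1:**
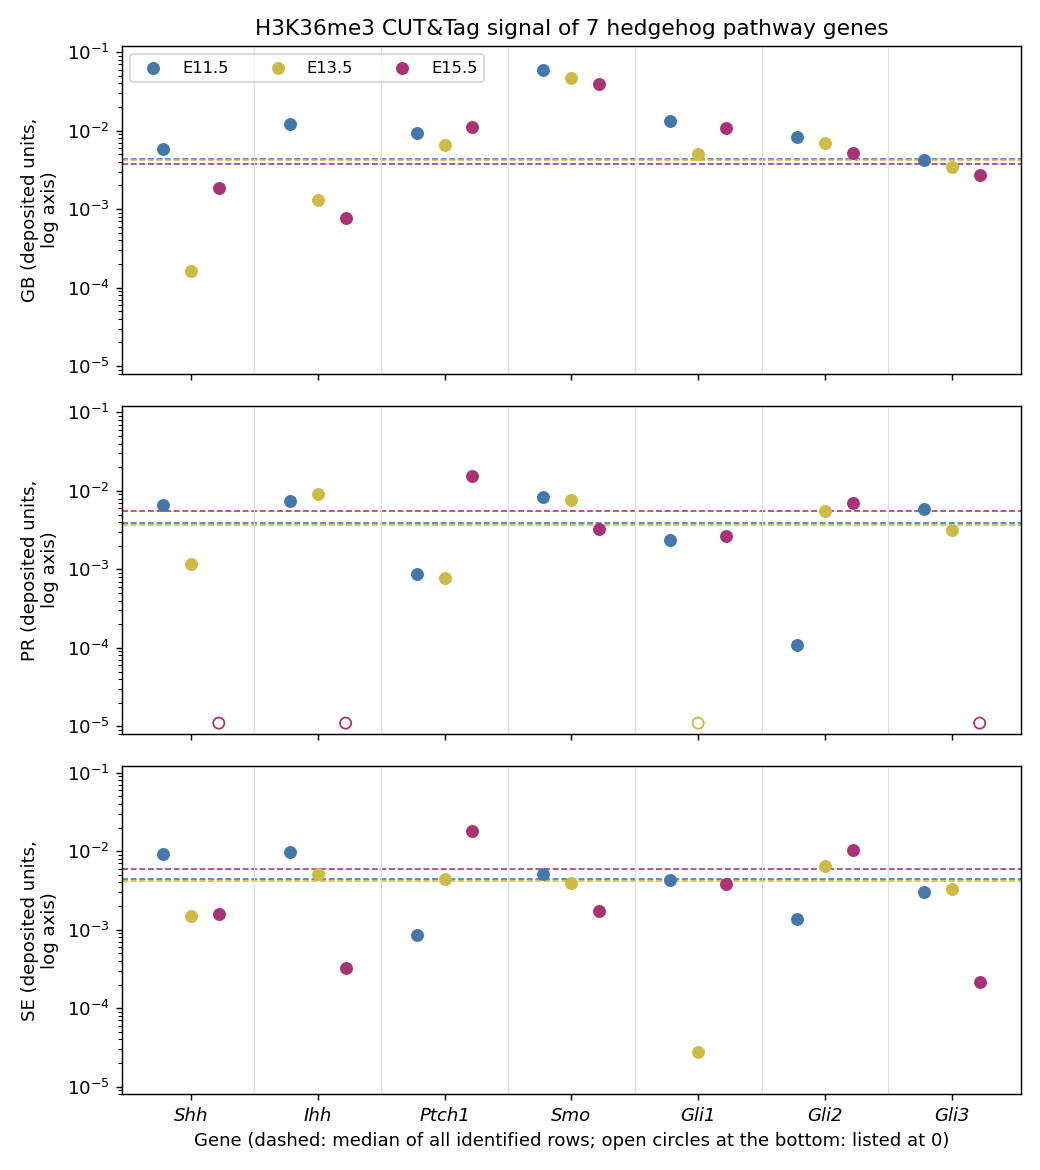
GB, PR and SE of the 7 genes by stage in deposited units on log axes, 1 point per library, with dashed lines at the median of all identified rows in each library and open circles for values listed at 0. Smo stands above the other 6 in GB at all stages, and PR is listed at 0 for Shh, Ihh and Gli3 at E15.5 and for Gli1 at E13.5.

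In gene-body signal Smo ranked highest of the 7 at every stage, and Shh and Ihh took the 2 lowest places at E13.5 and E15.5. The full order of GB was Smo, Gli1, Ihh, Ptch1, Gli2, Shh and Gli3 at E11.5. At E13.5 it was Smo, Gli2, Ptch1, Gli1, Gli3, Ihh and Shh, and at E15.5 it was Smo, Ptch1, Gli1, Gli2, Gli3, Shh and Ihh. Without replicate libraries, which neighbours in these orders differ by more than their spread is unknown. GB was above the median of all identified genes in 6 of the 7 genes at E11.5, in 4 at E13.5 and in 4 at E15.5. The median percentile of the 7 within its library was 81.7, 58.0 and 59.5 in stage order. A percentile here is the share of other identified genes of the same library with a lower value, with ties counted at 0.5, so it does not depend on how libraries were scaled to each other.

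Shh, the ligand best known from the gut epithelium next to the pancreas, carried body signal above the median at E11.5 and little at the later stages. Its GB was 0.00590 (E11.5), 0.000163 (E13.5) and 0.00184 (E15.5), at percentiles 63.5, 16.2 and 36.02. Ranked only against genes with GB above 0 it stood at 58.1, 1.58 and 19.7. The E13.5 value is a sum of 1.67 over 10262 positions, or 10 steps, against 374 steps at E11.5 and 116 at E15.5. Steps are not reads, and the number of reads behind these values is unknown. Among bodies of recovered length between 0.5 and 2 times its own, 6988 other genes, the percentiles were 49.1, 2.32 and 25.4. A length was recovered only where GB was above 0 in at least 2 libraries. Genes with signal in fewer libraries are thus missing from this and every other set of like length. Within the set, Shh was near the middle at E11.5 and close to the bottom at E13.5. The part of length in the difference from the ranks over all genes was not tested. PR of Shh was 0.00664, 0.00117 and 0 in stage order, and SE was 0.00923, 0.00151 and 0.001575. Both windows around the start were thus highest at E11.5 too. At E15.5 the SE sum and the GB sum of Shh were equal at 18.90 and the PR sum was 0. The annotated long noncoding RNA 9530036O11Rik, at chr5:28466984-28719209, shares 118 bases with Shh at the end with the higher coordinates. It runs on beyond Shh by more than the reach of SE, so any part of PR and SE past that end lies within it. At E11.5 the SE sum of 110.73 exceeded the GB sum of 60.54, so part of SE lay outside Shh. The files do not say which reads came from which strand, and the part of the noncoding RNA in these values was not tested.

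Ihh, a second ligand with the same receptor, showed the widest range of body signal of the 7 on the scale of ranks. Its GB was 0.0122 (E11.5), 0.00132 (E13.5) and 0.000769 (E15.5), at percentiles 89.3, 22.4 and 28.0, or 87.7, 8.90 and 9.65 among genes with GB above 0. Over its 6358 positions these are 478, 50 and 30 steps. Among 5725 other bodies of like length the percentiles were 80.6, 14.6 and 22.1. The windows around the start did not follow the body at E13.5. PR was 0.00745, 0.009265 and 0, and SE was 0.00974, 0.00511 and 0.000326 in stage order, so PR was highest at E13.5, a stage at which GB was far below its E11.5 value. At E13.5 the PR sum of 55.59 exceeded the GB sum of 8.37, so most of that PR signal lay outside the gene. No other annotated gene lies within 6000 bases of Ihh in the RefSeq table.

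Ptch1, the receptor and itself a transcriptional target of the pathway, had body signal well above the median at all stages. GB was 0.00922 (E11.5), 0.00663 (E13.5) and 0.0110 (E15.5), at percentiles 81.7, 71.0 and 79.2. Among 5166 other bodies of like length it stood at 90.8, 76.6 and 90.8. With 3708, 2578 and 4390 steps these values rest on far more signal than those of the ligands. PR around the upstream end was low at the earlier stages and above the median at E15.5, at 0.000863, 0.000782 and 0.0156 or percentiles 23.8, 23.2 and 71.8. SE was 0.000863, 0.00444 and 0.0182, at percentiles 13.0, 53.0 and 84.7. A long noncoding RNA, LOC102632415, is annotated upstream of Ptch1 at chr13:63575483-63615298 and reaches into both windows as read above. Its part in the PR and SE values of Ptch1 was not tested.

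Smo, the transducer that Ptch1 holds back, had by far the highest body signal of the 7. GB was 0.0594 (E11.5), 0.0473 (E13.5) and 0.0388 (E15.5), which is 13.8, 11.2 and 10.5 times the median of all identified genes. Only 100, 114 and 865 of the 24318 identified genes were higher. Among 7626 other bodies of like length no gene was higher at E11.5 or E13.5 and 42 were higher at E15.5. The windows around its start were ordinary, with PR of 0.00831, 0.00765 and 0.00331 at percentiles 75.0, 75.4 and 43.7. SE was 0.00507, 0.00391 and 0.00174, at percentiles 55.8, 47.0 and 29.9. An annotated pseudogene, Gm13717 at chr6:29750172-29751140, lies inside Smo and covers 969 of its bases. GB is 1 mean per gene and does not show where in the body the signal lies, and the part of that pseudogene in the Smo value was not tested.

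Gli1, the factor that the pathway switches on, was lowest at E13.5 in all 3 columns. Its GB was 0.0133 (E11.5), 0.00501 (E13.5) and 0.0109 (E15.5), at percentiles 91.2, 58.0 and 79.0. Among 7279 other bodies of like length the percentiles were 88.7, 45.8 and 67.7. PR was 0.00235, 0 and 0.00263, and SE was 0.00426, 2.75e-05 and 0.00386, so at E13.5 the 12000 positions of SE held a sum of 0.33, or 2 steps. The protein-coding gene Arhgap9 shares 66 bases with Gli1 at the end with the lower coordinates.

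Gli2, the main activator of the family, had body signal that was lower at each later stage, at 0.00820, 0.00699 and 0.00523 in stage order. Its percentiles were 77.6, 73.4 and 59.5 over all identified genes, and 95.5, 92.0 and 78.6 among 2227 other bodies of like length. Around its start the lowest value was that of E11.5, with PR of 0.000108 (E11.5), 0.005525 (E13.5) and 0.00695 (E15.5), at percentiles 11.2, 63.3 and 53.2. SE was 0.00135, 0.00656 and 0.0104, at percentiles 18.0, 71.5 and 67.4. The PR value at E11.5 is 4 steps. The deposited values of both windows were higher at E15.5 than at E13.5, but the percentiles were lower and that direction turned after quantile normalization, to log2 ratios for E15.5 over E13.5 of -0.49 in PR and -0.13 in SE, against 0.29 and 0.59 as deposited. A long noncoding RNA, Gm51642, and the microRNA gene Mir6346 are annotated inside Gli2, and the first covers 7.31% of it.

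Gli3, the family member that acts largely as a repressor, had a body signal close to or below the median. GB was 0.00422 (E11.5), 0.00344 (E13.5) and 0.00271 (E15.5), at percentiles 49.0, 41.3 and 42.7. Among 1924 other bodies of like length the percentiles were 62.1, 44.9 and 46.3. PR was 0.005935, 0.00318 and 0, and SE was 0.002995, 0.00332 and 0.0002175, so both were lowest at E15.5. The gene is the longest of the 7, and its GB sums of 6946, 5470 and 4432 steps are among the best filled. The long noncoding RNA Gm6556 shares 896 bases with its start.

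**Figure D2:**
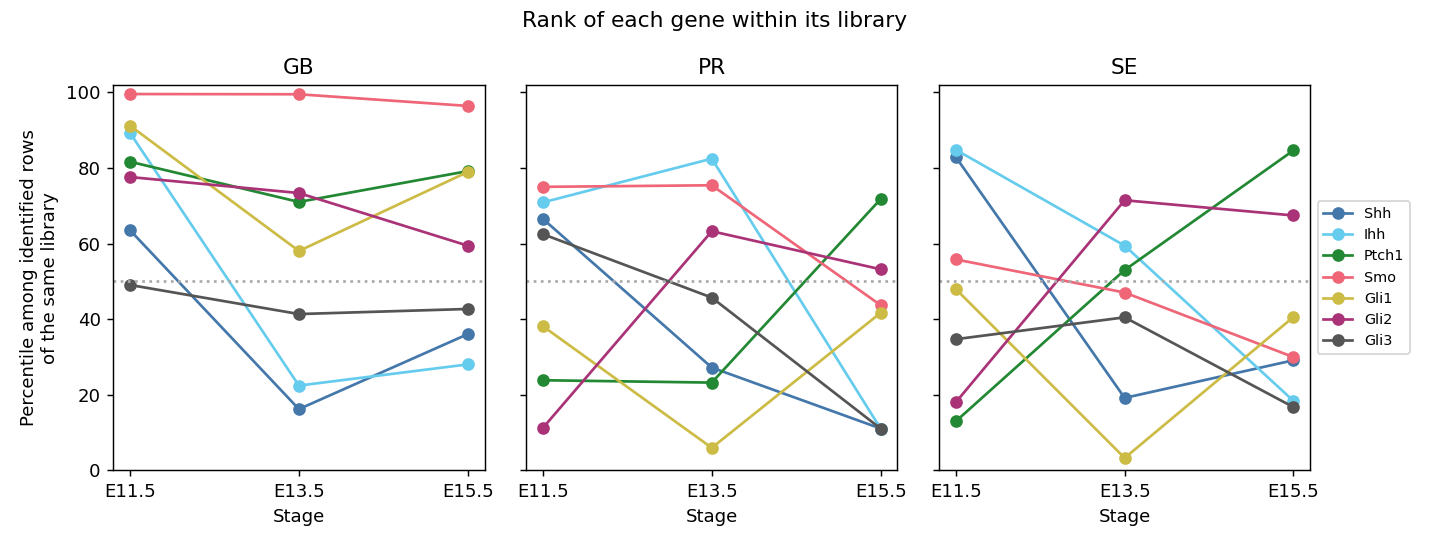
Percentile of each of the 7 genes among identified rows of the same library (vertical axis, 0 to 100) over the 3 stages, in 1 panel each for GB, PR and SE, with a dotted line at 50. In GB, Smo stays between 96.4 and 99.6, while Shh and Ihh are above 50 at E11.5 and below 50 at both later stages.

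The stages were compared by the log2 ratio of later to earlier library after adding 0.001 to each value, a scale that understates the change of low values. A gene counted as higher or lower where it was at least 2-fold apart and its higher library reached the median of that column over all libraries (0.00413 for GB, 0.00407 for PR and 0.00460 for SE). These are sizes, not tests. For E13.5 against E11.5 all 7 genes reached that floor in GB and all 7 had a log2 ratio below 0, as they did after both other scalings of the libraries. Of the 7, 3 were at least 2-fold lower at E13.5 and 0 higher, where 19.4% of all 16346 genes above the floor were lower and 17.2% higher. The median log2 ratio of the 7 was -0.42, against -0.07 over all genes above the floor, so most of those genes were below 0 as well. The ratios of Ptch1, Smo, Gli2 and Gli3 stood at percentiles 35.3, 39.0, 44.0 and 42.6 among them, not far from the middle.

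The 3 genes lower at E13.5 were Shh, Ihh and Gli1, the shortest of the group. GB of Shh was 0.000163 at E13.5 against 0.00590 at E11.5, a log2 ratio of -2.57, and 6.62% of all genes above the floor had a lower ratio. With a GB near 0 at E13.5 the size of that ratio was set by the pseudocount, at -4.51 with 0.0001 and -1.08 with 0.005. Among genes of like length 3.16% had a lower one, and 22.2% of them were at least 2-fold lower. GB of Ihh was 0.00132 at E13.5 against 0.0122 at E11.5, a log2 ratio of -2.51, with 6.68% of genes of like length below it and 27.7% of those at least 2-fold lower. GB of Gli1 was 0.00501 at E13.5 against 0.0133 at E11.5, a log2 ratio of -1.25, with 15.3% of genes of like length below it, and with a pseudocount of 0.005 it was -0.87 and no longer 2-fold. The ratio of Shh was thus outside the middle 90% of genes of like length, and those of Ihh and Gli1 were inside it. Genes with GB above 0 in fewer than 2 libraries have no recovered length and are missing from that set. Among all genes above the floor, with 6.62% below it, the ratio of Shh was inside the middle 90%. Whether length or the missing genes set Shh apart was not tested. For the longer genes the log2 ratios were -0.42 for Ptch1, -0.32 for Smo, -0.20 for Gli2 and -0.23 for Gli3, all within the middle 90% of genes of like length.

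For E15.5 against E13.5 4 of the 7 genes reached the floor in GB, and 0 were at least 2-fold apart in either direction, where 22.1% of all genes above the floor were lower and 27.6% were higher. Gli1 came closest, with GB of 0.0109 at E15.5 against 0.00501 at E13.5, which is 2.17-fold as deposited and a log2 ratio of 0.98 once 0.001 was added. It passed 2-fold with a pseudocount of 0.0001 and after scaling the libraries to the same median GB, at 1.15. After quantile normalization Smo was 2-fold lower, at -1.47. Ptch1 was at 0.0110 at E15.5 against 0.00663 at E13.5, a log2 ratio of 0.65 that was higher than in 63.3% of all genes above the floor and in 78.4% of those of like length. It was 0.32 after quantile normalization. Smo and Gli2 had log2 ratios of -0.28 and -0.36. Shh, Ihh and Gli3 were under the floor in both libraries, with GB of 0.00184, 0.000769 and 0.00271 at E15.5 against 0.000163, 0.00132 and 0.00344 at E13.5.

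Over the whole span, E15.5 against E11.5, both ligands were at least 2-fold lower in the deposited GB values and the other 5 genes were not, and of the ligands Ihh alone stayed so under every pseudocount and scaling tried. Shh was at -0.94 on the log2 scale after quantile normalization and at -0.67 with a pseudocount of 0.005, and Smo passed 2-fold after quantile normalization, at -1.62. All 7 reached the floor, and 2 lower and 0 higher stand beside 22.8% lower and 26.5% higher over all genes that reached it. Ihh was at 0.000769 at E15.5 against 0.0122 at E11.5, a log2 ratio of -2.90, with 8.79% of genes of like length below it. Shh was at 0.00184 at E15.5 against 0.00590 at E11.5, a log2 ratio of -1.28, with 19.7% of genes of like length below it. Both ratios lie inside the middle 90% of genes of their length. Ptch1 was the only gene of the 7 with a ratio above 0, at 0.23, and it fell below 0 after quantile normalization. The other log2 ratios were -0.60 for Smo, -0.27 for Gli1, -0.56 for Gli2 and -0.49 for Gli3. The median over the 7 was -0.56, against 0.14 over all genes above the floor. The 3 comparisons share libraries, and a value that stands apart in 1 library moves 2 of them.

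**Figure D3:**
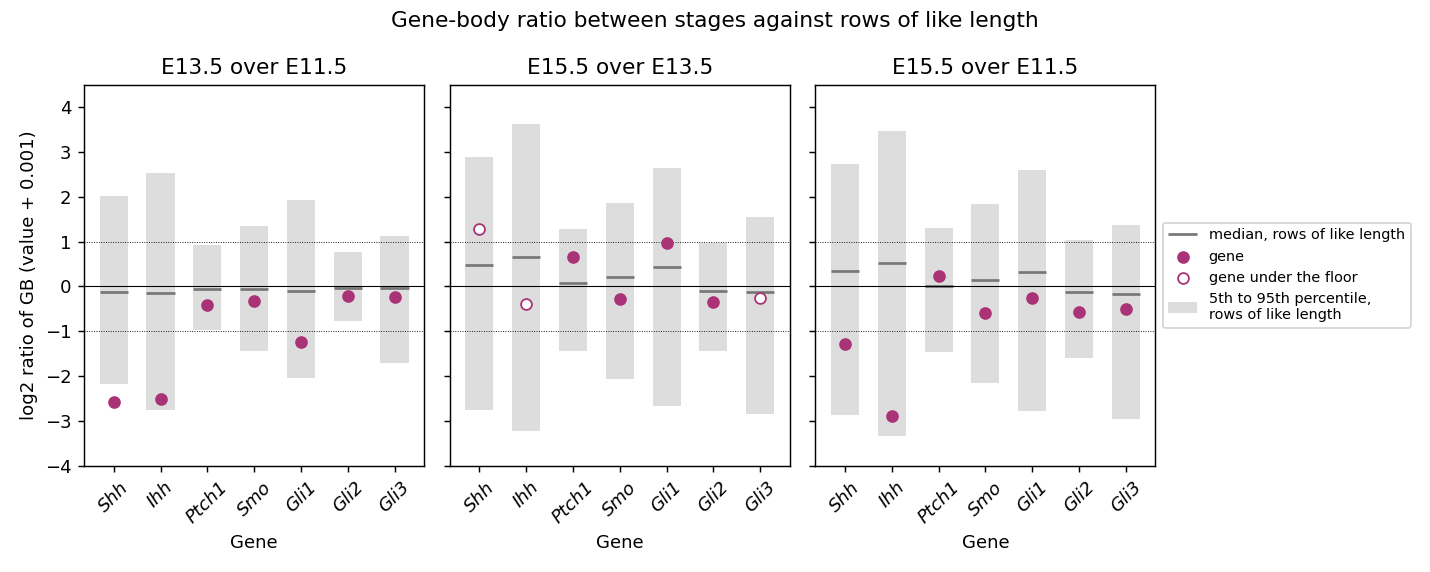
Log2 ratio of GB (value plus 0.001) of the 7 genes in 3 panels, E13.5 over E11.5, E15.5 over E13.5 and E15.5 over E11.5, with points for genes, open where both libraries were under the floor. Grey bars span the 5th to 95th percentile of genes with 0.5 to 2 times the body length, and short lines their median. Genes with GB above 0 in fewer than 2 libraries have no recovered length and are not in the bars. Shh at E13.5 over E11.5 is the point outside its bar, at -2.57.

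Around the gene starts, genes of the group lay on both sides in every pair of stages. In PR for E13.5 against E11.5, Gli2 was at least 2-fold higher and Shh at least 2-fold lower of 5 genes above the floor, where 32.8% of all genes above the floor were lower and 28.8% were higher. For E15.5 against E13.5, Ptch1 was higher and Ihh and Smo were lower of 4 above the floor, beside 52.2% higher and 24.7% lower. Over the whole span to E15.5 from E11.5, Shh, Ihh, Smo and Gli3 were lower and Ptch1 and Gli2 higher of 6 above the floor, beside 50.0% higher and 26.0% lower. The median log2 PR ratio of the 7 for that pair was -1.11, against 1.001 over all genes above the floor. PR ratios of single genes are not given against values of 0, which Shh, Ihh and Gli3 had at E15.5.

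Ptch1 and Gli2 were the genes with higher start windows over the whole span. The windows of Ptch1 also take in part of the noncoding RNA LOC102632415. PR of Ptch1 was 0.0156 at E15.5 against 0.000863 at E11.5, a log2 ratio of 3.15, and the ratio was higher than in 85.9% of all genes above the floor. With pseudocounts of 0.0001 and 0.005 it was 4.03 and 1.81. PR of Gli2 was 0.00695 at E15.5 against 0.000108 at E11.5, a log2 ratio of 2.84 that was higher than in 81.8% of them. It rests on 4 steps at E11.5, and with the same pseudocounts it was 5.08 and 1.23. PR of Smo was 0.00331 at E15.5 against 0.00831 at E11.5, a log2 ratio of -1.11 that fell short of 2-fold with a pseudocount of 0.005, at -0.68, and after scaling to the same median GB, at -0.93. In the same 2 settings the lower PR of Smo at E15.5 against E13.5, just past 2-fold as reported, was not 2-fold either.

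SE, the wider window, gave a like picture. Over the whole span, Ptch1 and Gli2 were higher and Shh, Ihh and Smo lower of 5 above the floor, beside 42.7% higher and 19.7% lower over all genes. SE of Ptch1 was 0.0182 at E15.5 against 0.000863 at E11.5, a log2 ratio of 3.36, higher than in 97.2% of all genes above the floor. SE of Ihh was 0.000326 at E15.5 against 0.00974 at E11.5, a log2 ratio of -3.02, with 3.17% of genes below it. SE of Smo, at -1.15 for that span, was -0.58 with a pseudocount of 0.005 and -0.99 after scaling to the same median GB. For E13.5 against E11.5, Gli2 was higher and Shh lower of 4, beside 19.9% higher and 24.8% lower. For E15.5 against E13.5, Ptch1 was higher and Ihh lower of 3, beside 45.7% higher and 17.9% lower. SE includes the positions of PR, so the counts of these columns are not separate evidence.

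Within each library 5 of the 7 genes had more signal per position over the body than around the start, beside 52.3% (E11.5), 52.7% (E13.5) and 38.3% (E15.5) of all identified genes. The comparison was made by the log2 ratio of PR over GB, each plus 0.001, whose sign does not depend on the pseudocount or on a scale factor of the library but whose size does. The median over the 7 was -2.09, -0.29 and -1.51 in stage order, against -0.06, -0.08 and 0.06 over all identified genes. For Smo the ratio was -2.70, -2.48 and -3.21, and -2.27, -2.05 and -2.40 with a pseudocount of 0.005. Smo was the lowest of the 7 at E15.5 with either, and only 1.86% of all genes were lower. Gli2 at E11.5 was at -3.05 and Gli1 at E13.5 at -2.59, both below Smo, but these rest on a PR of 4 steps and a PR of 0. With a pseudocount of 0.005 both were above Smo, Gli2 at -1.37. For Ptch1 the ratio was -2.45, -2.10 and 0.47, and for Gli2 -3.05, -0.29 and 0.35. In both genes PR was thus below GB at E11.5 and above it at E15.5. At E15.5 PR was above GB in 51.2% of all identified genes. PR of Ptch1 describes the upstream end of the gene and not its listed promoter. For Shh it was 0.15, 0.90 and -1.51, and for Ihh -0.64, 2.15 and -0.82. At E13.5 the PR sums of both ligands exceeded their GB sums, 7.03 against 1.67 for Shh and 55.59 against 8.37 for Ihh. Most of that PR signal thus lay outside the genes, and these ratios do not compare start and body within the gene.

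Body signal that exceeds the whole SE sum cannot lie in the SE window, which sets a lower limit on how much is away from it. For Smo at least 96.0%, 96.2% and 97.9% of the summed body signal was outside SE in stage order. For Gli3 the limits were 96.8%, 95.6% and 99.6%, and for Gli2 they were 99.1%, 94.9% and 89.2%. For Ptch1 they were 98.3%, 87.7% and 69.5%. For Gli1, whose body is under 12000 positions, at least 67.1%, 99.4% and 63.6% was outside. For Shh and Ihh the SE sum was at least as large as the GB sum, except for Ihh at E15.5 with 20.0%, so the place of their body signal is not limited in this way. The bodies of Gli2 and Gli3 are far longer than SE, and a high share there follows in large part from length.

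**Figure D4:**
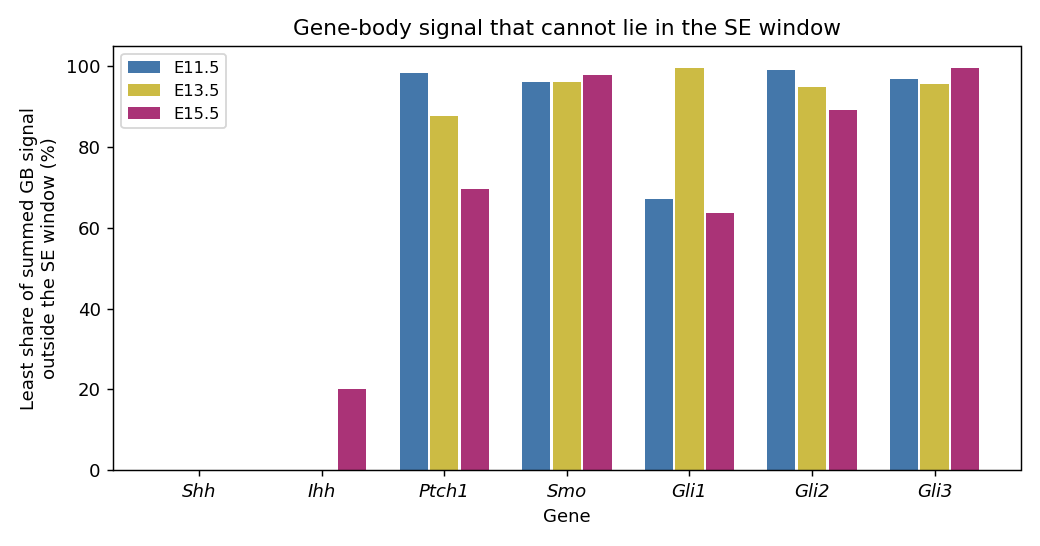
Least share of the summed GB signal that lies outside the SE window, in percent, for the 7 genes by stage (bars, 1 library each). Smo stays at 96.0% or above at all stages, Ptch1 is at 98.3% at E11.5 and 69.5% at E15.5, and Shh has a limit of 0 at all stages.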

How the data were processed

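The data are H3K36me3 CUT&Tag libraries of EpCAM-sorted mouse pancreatic epithelium, 1 per stage, with sequencing depth given only as a mean over libraries in the labels. Per the submitters' processing notes, Bowtie2 2.4.2 and build mm10 were used. The sources used here do not give the filters, the scaling or the window definitions. The authors deposited 3 columns of signal per gene, which behave as mean coverage over a window, so the depth behind a value is unknown and no counting interval is given. Where the series text and the sample labels differ on the day of the middle stage, the labels were used. Of 25493 rows, 1175 (4.61%) without an identifier were left out of the main ranks.

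Steps and GB lengths were recovered from the values with Python 3.11.15, numpy 2.4.6 and pandas 2.3.3, keeping sums to 2 decimals and taking the smallest length that fitted, for 20280 identified rows. Rows with GB above 0 in fewer than 2 libraries were given no length and entered no set of like length. On 1500 simulated windows 95.6% of lengths were exact. Their lengths were drawn from those already recovered, and nearly all had signal at every stage. The accuracy for rows with a GB of 0 at a stage is therefore not known. Values were compared as deposited, with a pseudocount of 0.001 and a floor at the median of each column. By the naming rule all 7 genes were described, whatever their values, and no gene was named for a like pattern, since 3 libraries are too few. The genes, lists and settings were chosen with earlier results of these data known. A list of 30 other pathway genes and the cell type markers were not analysed, because 0 of the reference rows held an Ensembl identifier. Alternatives were other pseudocounts, scalings, folds, floors and sets of rows ranked against.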

Additional observations from a re-analysis of the deposited data

How the results depend on the processing

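Counts of genes at least 2-fold apart moved with the settings, and the cause was not tested beyond what each setting does by construction. In GB for E15.5 against E13.5, 0 higher became 1 with a pseudocount of 0.0001, after scaling each library to the same median GB and without a floor, and 2 at 1.5-fold, and 0 lower became 1 after quantile normalization. For E15.5 against E11.5, 2 lower in GB became 1 with a pseudocount of 0.005. That pseudocount turned 1 into 0 for PR lower and SE higher at E13.5 against E11.5 and for SE lower at E15.5 against E13.5, and 2 into 1 for PR lower at E15.5 against E13.5, as did scaling to the same median GB. The 1.5-fold threshold gave 2 in place of 1 for PR lower and SE lower at E13.5 against E11.5 and for SE higher at E15.5 against E13.5. Without a floor, 2 in place of 1 were found for PR lower, SE higher and SE lower at E13.5 against E11.5 and for PR higher, SE higher and SE lower at E15.5 against E13.5, and 4 in place of 2 for PR lower at E15.5 against E13.5. Quantile normalization gave 2 in place of 1 for SE higher at E13.5 against E11.5. The other counts stayed within 1.5 times, which does not show the same genes. Of 25 calls of a gene in a column and pair of stages, 8 were lost and 0 gained with a pseudocount of 0.005, 3 lost and 1 gained after scaling to the same median GB, and 1 lost and 3 gained after quantile normalization, where Smo took the place of Shh in GB over the whole span. Smo accounts for 3 of the losses at 0.005 and for all 3 after median scaling.

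Scaling to the same median GB shifted the median GB ratio on the log2 scale by 0.18 for E15.5 against E13.5 and by 0.23 for the whole span, with 0.17 and 0.22 in PR and in SE. Quantile normalization moved it, in the same order, by -0.22 and -0.14 in GB, -1.12 and -0.99 in PR and -0.85 and -0.72 in SE, for E13.5 against E11.5 by 0.15 in PR and 0.13 in SE, and took the share of higher calls to 50.1% and 50.07% in PR, against 67.9% and 65.8%, and to 49.97% and 50.4% in SE, against 71.9% and 68.4%. Sizes moved more than calls. Of the log2 ratios between stages, 28 moved by at least 0.5 with a pseudocount of 0.0001 and 35 did not, 32 moved with 0.005 and 31 did not, and 15 moved after quantile normalization and 48 did not. Of the log2 ratios of PR over GB, 12 moved as far with 0.005 and 9 did not, and 5 moved with no pseudocount and 12 did not. Ranked among values above 0, 13 percentiles moved by more than 10 points and 46 did not. No log2 ratio past 2-fold and above the floor changed sign under these scalings or pseudocounts. The comparison of GB ratios with genes of like length was chosen after seeing the data. No paired analysis was possible because no stage has a replicate, so nothing was tested.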
